A study of Mus musculus with 4 samples.

Results

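The comparison described here sets mice whose skeletal muscle lacks KLF15, a transcription factor (KO), against wild-type mice (WT), both given vehicle. It rests on 2 of the 4 arrays of the study, 1 array for each group. The arrays were picked by their group labels, with earlier results of these data known. Gastrocnemius, a calf muscle, was profiled on Affymetrix arrays in 4 groups: WT vehicle, WT given streptozotocin (STZ, a toxin of the pancreatic beta cells used to make mice diabetic), KO vehicle and KO STZ. Vehicle was 50 mM sodium citrate at pH 4.5. STZ was injected intraperitoneally in the same buffer at 50 mg/kg on each of 5 consecutive days, and the muscle was collected 3 weeks later. The labels call the knockout specific to skeletal muscle; the sources used here do not give the promoter that drove the deletion, the strain, age and sex of the mice, or the number of animals behind each array. Because each group had 1 array, no value below has an error between animals, no test was run, and "higher" and "lower" describe single arrays. The KO STZ and WT STZ arrays share no array with the vehicle arrays and are given beside them as a second reading of the genotype in another condition.

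KLF15 is a zinc-finger protein of the Kruppel-like family that binds GC-rich and CACCC-type DNA. In skeletal muscle, liver and heart it is known for switching on the breakdown of branched-chain amino acids and other nitrogen-containing fuels, and it takes part in the response to fasting and to glucocorticoids. It has also been linked to lipid use in muscle and to restraint of connective-tissue genes. By its label the deletion was in skeletal muscle, and whole gastrocnemius also holds vessels, connective tissue, tendon, fat and blood cells.

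Values are linear intensities; the difference between arrays is log2(intensity + 3.69) of KO minus that of WT. This offset understates the change of dim genes. Genes with a mean level above the median of all probe clusters were kept, 13258 of 22180 (59.8%), and each was represented by its brightest cluster. The median difference over the kept genes was -0.0039 under vehicle and -0.048 under STZ. Bright genes lay lower: with the level filter at percentile 75 the medians were -0.014 under vehicle and -0.11 under STZ. In the brightest of 5 equal classes of the kept genes the median was -0.043 under vehicle. Markers of fast muscle were bright on all 4 arrays, as skeletal alpha-actin (Acta1) at 7545 to 8549 and the fast myosin heavy chain Myh4 at 7237 to 7549 show. Median intensity over all clusters lay between 5.73 and 5.96 on the 4 arrays.

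More genes were lower than higher in KO vehicle. At 2-fold or more, 10 genes (0.0754% of those kept) were lower and 3 (0.0226%) were higher. At 1.5-fold or more, 103 genes (0.777%) were lower and 77 (0.581%) were higher, and these counts are the background against which each gene list below is read. The lists were chosen with earlier results of these data known. Their counts past 1.5-fold are therefore a description, and no conclusion about a list is drawn from their excess over the background. The background counts depend on the processing: with an offset of 1 they became 176 and 141, and with the level filter at percentile 75 they became 58 and 38. The 1.5-fold calls of Aplnr, Ccn2, Col12a1, Hsd17b7, Hspa1a, Junb, Ldhd, Slc27a4, Smarcd1 and Sox4 were lost under at least 1 other setting. In 5 classes of equal size by level, percentile 1 of the difference lay between -0.57 and -0.47 and percentile 99 between 0.45 and 0.59, so that a difference of 1.5-fold was at the edge of the spread at every level.

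**Figure D1:**
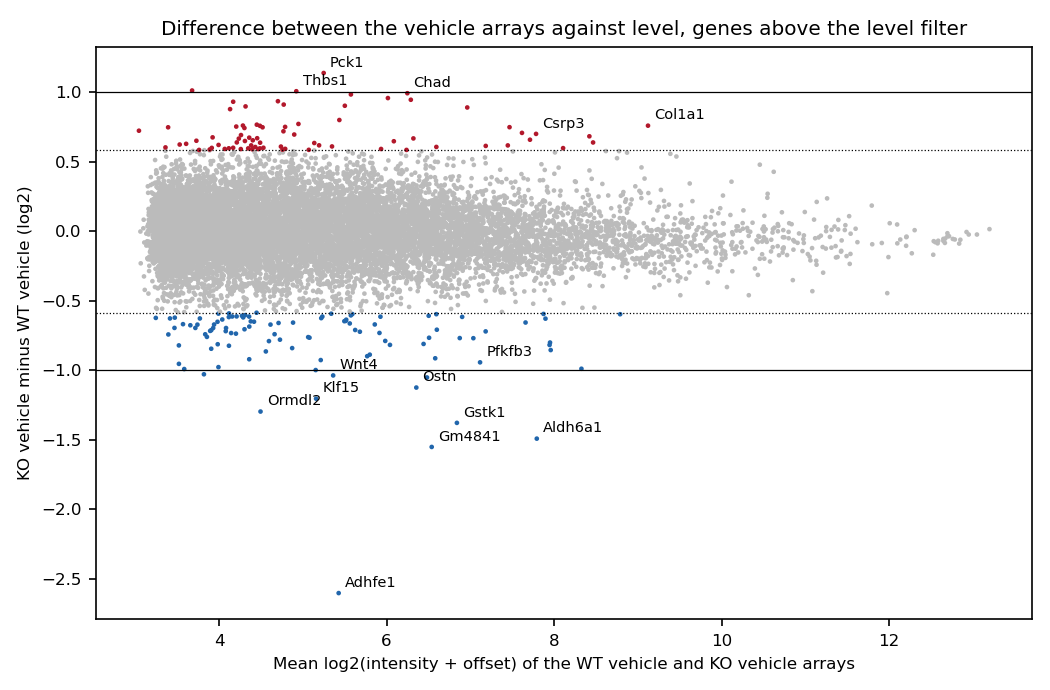
Difference between the KO vehicle and WT vehicle arrays (vertical axis, log2) against their mean log2 level (horizontal axis) for the 13258 genes kept; blue and red points are at least 1.5-fold lower and higher, dotted lines mark 1.5-fold and solid lines 2-fold. Adhfe1 lies lowest at -2.60, and 10 genes lie at or below the lower solid line against 3 at or above the upper one.

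Klf15 itself, represented by a single cluster, read 50.5 in WT vehicle and 19.8 in KO vehicle, with 72.1 in WT STZ and 16.04 in KO STZ. Both KO arrays were below both WT arrays, and the KO vehicle array stood at 39.3% of WT. The sources used here do not say whether this cluster lies in the deleted part. Of the 8 protein-coding genes on each side of Klf15 in the RefSeq order, all 16 were measured and 9 passed the level filter. None of the 9 was 1.5-fold apart, and their differences ran from -0.26 to 0.26. Among them was Aldh1l1, a folate enzyme gene, at 0.072 under vehicle and 0.55 under STZ.

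The largest difference of all was in Adhfe1, which encodes a mitochondrial hydroxyacid-oxoacid transhydrogenase that oxidises gamma-hydroxybutyrate and makes D-2-hydroxyglutarate. Adhfe1 read 102 in WT vehicle and 13.8 in KO vehicle, and 111 and 11.3 in the STZ arrays. KO thus held 13.5% of the WT intensity with vehicle and 10.2% with STZ, and the log2 difference under vehicle (-2.60) was the lowest of any gene. The genotypes did not overlap, and the STZ arrays of each genotype lay close to the vehicle arrays. Of 8 kept genes of hydroxyacid and hydroxyglutarate dehydrogenases, 2 were at least 1.5-fold lower and 0 higher. The second was Ldhd, the mitochondrial D-lactate dehydrogenase, at 115 in WT and 74.9 in KO (-0.60). D2hgdh, which clears D-2-hydroxyglutarate, differed by -0.051, and Idh1 by 0.39. The median of the list was -0.085.

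Aldh6a1 encodes methylmalonate-semialdehyde dehydrogenase, an enzyme of valine and thymine breakdown. Its brightest cluster read 368 in WT vehicle, 129 in KO vehicle, 381 in WT STZ and 112 in KO STZ, a log2 difference of -1.49 under vehicle and -1.74 under STZ. Its neighbour Lin52, which encodes a subunit of the DREAM and MuvB cell-cycle complexes, read 72.1, 37.2, 81.5 and 41.5 in the same order (-0.89 and -0.91). For both genes the KO arrays were clearly below the WT arrays. Among 8383 pairs of protein-coding genes that are next to each other in the RefSeq order and were both kept, 2 pairs had both genes at least 1.5-fold lower and 0 had both at least 1.5-fold higher. One pair was Aldh6a1 and Lin52, which RefSeq places head to head, and the other was Gm4841 and F830016B08Rik, described with the interferon genes.

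The promoter sequences of this head-to-head pair are shown because the genes were low together. Those of Gstk1 and Bckdhb are shown as examples from the lowest genes with a promoter entry. Ormdl2 and Wnt4, both lower than Bckdhb under vehicle, also had an entry and are given as counts only, as are second start sites of Aldh6a1 and Bckdhb. They come from RefSeq on build GRCm38.p6, run from 250 bases before to 50 bases after a start site, 5′ to 3′ on the gene's strand, and lie at chr12:84450975-84451274 (minus strand, Aldh6a1), chr12:84451258-84451557 (plus strand, Lin52), chr6:42245685-42245984 (plus strand, Gstk1) and chr9:83924887-83925186 (plus strand, Bckdhb). Capitals mark a match on either strand to GGGCGG (a GC box), CACCC (the box of that name) or CCNCNCCC (a pattern reported for Kruppel-like factors); the 3 overlap each other.
Aldh6a1: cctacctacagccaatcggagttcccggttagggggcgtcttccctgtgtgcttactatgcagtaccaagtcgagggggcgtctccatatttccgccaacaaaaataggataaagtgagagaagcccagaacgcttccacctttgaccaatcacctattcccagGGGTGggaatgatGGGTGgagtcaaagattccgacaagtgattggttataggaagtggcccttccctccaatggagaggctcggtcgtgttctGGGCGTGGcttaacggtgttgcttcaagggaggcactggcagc
Lin52: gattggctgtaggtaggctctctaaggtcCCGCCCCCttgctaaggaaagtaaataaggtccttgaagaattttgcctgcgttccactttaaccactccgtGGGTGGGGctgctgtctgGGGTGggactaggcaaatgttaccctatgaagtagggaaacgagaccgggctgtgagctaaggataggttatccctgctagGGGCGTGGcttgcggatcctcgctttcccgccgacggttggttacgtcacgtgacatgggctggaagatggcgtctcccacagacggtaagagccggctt
Gstk1: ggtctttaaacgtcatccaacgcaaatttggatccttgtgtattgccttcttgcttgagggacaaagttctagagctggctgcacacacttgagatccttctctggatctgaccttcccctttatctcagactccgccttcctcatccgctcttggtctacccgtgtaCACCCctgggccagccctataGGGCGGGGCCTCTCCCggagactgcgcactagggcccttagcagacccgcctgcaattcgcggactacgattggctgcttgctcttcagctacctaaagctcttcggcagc
Bckdhb: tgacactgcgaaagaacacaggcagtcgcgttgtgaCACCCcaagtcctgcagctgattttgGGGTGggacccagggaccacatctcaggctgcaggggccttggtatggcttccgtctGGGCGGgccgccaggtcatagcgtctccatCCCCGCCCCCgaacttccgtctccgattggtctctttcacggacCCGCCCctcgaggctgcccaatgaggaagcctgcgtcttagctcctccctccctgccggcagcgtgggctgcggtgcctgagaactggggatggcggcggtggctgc

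The windows of Aldh6a1 and Lin52 overlap by 17 bases. Aldh6a1 held 1 match to CCNCNCCC, 2 to CACCC and 0 to GGGCGG, Lin52 held 3, 2 and 1, Gstk1 held 2, 1 and 1, and Bckdhb held 2, 2 and 3. In the same order, the second start site of Aldh6a1 held 0, 1 and 0 and that of Bckdhb 0, 0 and 0. Ormdl2 held 1, 0 and 1, and Wnt4 held 1, 0 and 8. CCNCNCCC was found in 61.3% of the 80 promoters of genes at least 1.5-fold lower (66 of the 103 genes had an entry), in 60.3% of the 68 promoters of genes at least 1.5-fold higher (59 of 77 genes) and in 67.0% of 13090 promoters of the genes kept. The shares for GGGCGG were 46.3%, 48.5% and 59.3%, and for CACCC 62.5%, 60.3% and 64.3%. In the 7 promoters of the 6 genes at least 2-fold lower that had an entry, CCNCNCCC and CACCC were each in 71.4% and GGGCGG in 57.1%. Over all 32851 promoters of this length in the table, CCNCNCCC was in 49.5%, GGGCGG in 35.7% and CACCC in 57.5%. A match describes letters only and is not a bound site.

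Detoxifying enzymes held several of the lowest genes. Gstk1, the glutathione transferase of mitochondria and peroxisomes, read 181 in WT vehicle and 67.4 in KO vehicle (-1.38), and 199 and 58.3 in the STZ arrays (-1.71). Gstm2, a cytosolic mu-class transferase, read 22.4 and 12.5 under vehicle and 35.1 and 21.8 under STZ. Its genotypes were apart within each treatment, but KO STZ nearly reached WT vehicle. These were the 2 genes at least 1.5-fold lower among 23 kept genes of glutathione enzymes, 0 were higher, and the median of the list was -0.043. Gstm1 was at -0.33, while glutathione reductase (Gsr) and the catalytic subunit of glutamate-cysteine ligase (Gclc) were at 0.19 and 0.14. Antioxidant genes of the NRF2 type gave 0 lower and 0 higher of 17, with a median of 0.031.

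Among 16 kept aldehyde dehydrogenases, 3 were at least 1.5-fold lower and 0 higher, with a median of -0.058, which became -0.20 with the level filter at percentile 75. Besides Aldh6a1 they were Aldh2, the mitochondrial enzyme that clears acetaldehyde and lipid aldehydes, and Aldh4a1, which acts in proline breakdown. Aldh2 read 324 in WT vehicle, 182 in KO vehicle, 375 in WT STZ and 169.8 in KO STZ (-0.82 and -1.13). A dimmer cluster of Aldh2 differed less, by -0.48 and -0.60. The other cluster of Aldh6a1 differed by -1.11 and -1.62, so both clusters of each gene were lower in KO in both treatments. Aldh9a1 was the highest member at 0.34. Lancl1, which encodes a glutathione-binding protein, was outside these lists and read 120.3 and 72.2 under vehicle and 112 and 64.7 under STZ.

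The amino acid breakdown genes were lower as a group, with 7 of 33 at least 1.5-fold lower, 0 higher and a median of -0.30. Bckdhb, a subunit of the branched-chain ketoacid dehydrogenase whose promoter is shown above, read 46.6 in WT vehicle and 21.5 in KO vehicle, and 50.8 and 26.8 under STZ. Kyat3, a kynurenine aminotransferase outside that list, read 23.1 in WT vehicle and 13.4 in KO vehicle, and 22.1 and 11.8 under STZ. Both KO arrays were below both WT arrays for Bckdhb and Kyat3. Amino acid transporters had a median of 0.10 with 0 of 19 past 1.5-fold in either direction. The highest was Slc38a3, which carries glutamine, at 0.38 under vehicle and -0.41 under STZ, a turn of about equal size. Slc1a5, another glutamine carrier, was at 0.33 by its brightest cluster and -0.19 by its other, with an average of 0.069.

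**Figure D2:**
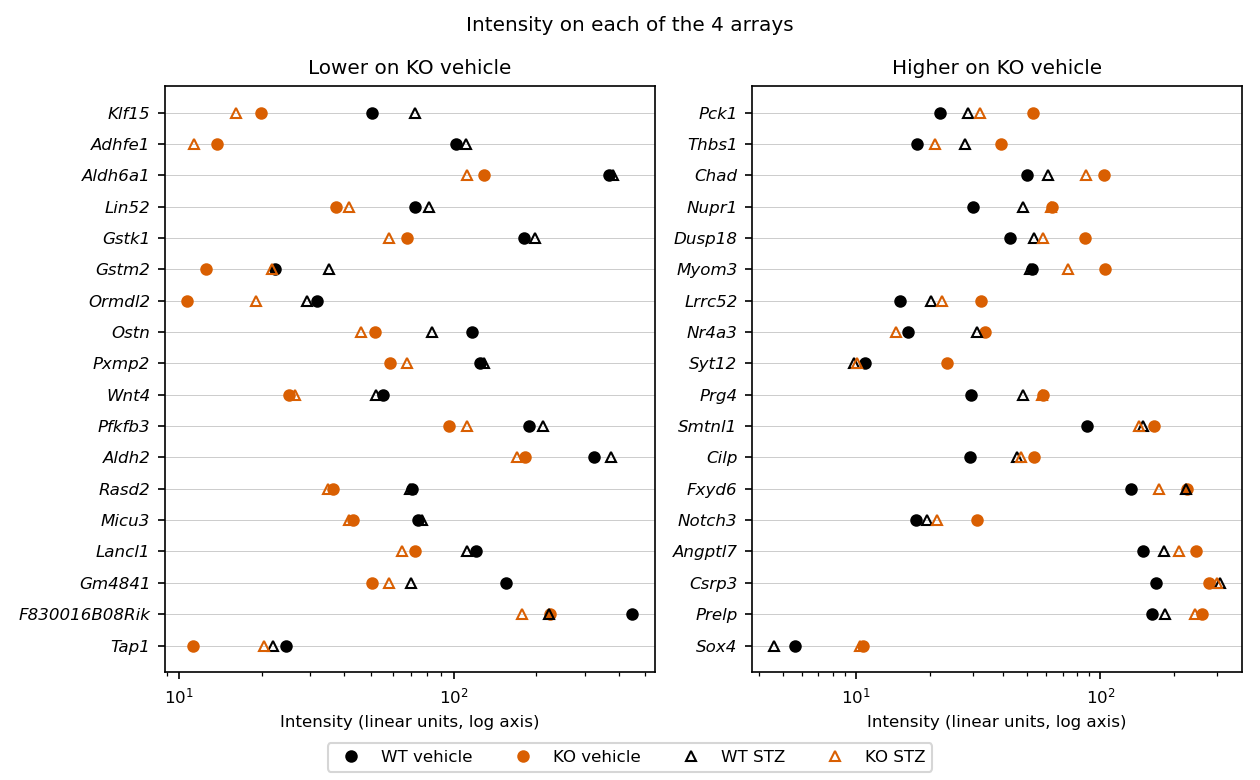
Intensity (horizontal axis, linear units on a log axis) of 18 genes lower and 18 genes higher on the KO vehicle array; each gene has 4 points, 1 per array, with circles for vehicle, triangles for STZ, black for WT and orange for KO. In the left panel both KO points lie left of both WT points for most genes, as for Adhfe1 (13.8 and 11.3 against 102 and 111). In the right panel WT vehicle is the single low point for some genes, as for Csrp3 (169 against 278 to 308). For others KO vehicle is the single high point, as for Pck1 (52.7 against 21.9 to 32.0).

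Membrane and lipid enzymes also held single low genes. Pxmp2, a channel protein of the peroxisomal membrane, read 125 in WT vehicle and 58.4 in KO vehicle, and 129 and 67.6 under STZ. It was the only gene at least 1.5-fold lower among 29 of peroxisomes, 0 were higher, and the median was -0.043. Ormdl2, an inhibitor of the first enzyme of sphingolipid synthesis, read 31.6 in WT vehicle and 10.7 in KO vehicle, with 29.2 and 19.1 under STZ. All 4 arrays again separated the genotypes, though the gap was smaller under STZ. Its relative Ormdl1 was at -0.26, and Sptlc2, a subunit of the enzyme that ORMDL proteins restrain, at 0.36. Ormdl2 was the only 1 of 19 sphingolipid genes past 1.5-fold; the median of that list was -0.071 but turned to 0.0056 at most under other settings.

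Genes of fat storage were mostly a little higher under vehicle and not under STZ. Of 21 lipid droplet and lipolysis genes, 15 were above 0 (against 49.1% of all genes kept) and the median was 0.12, with 0 past 1.5-fold; under STZ the median was -0.086. Plin4, a droplet coat protein, read 191 in WT vehicle and 269 in KO vehicle (0.48), and Pnpla2, the main triglyceride lipase, 336 and 426 (0.34). Plin5, a coat protein that ties droplets to mitochondria, went the other way, at 71.5 and 48.4 (-0.53), and was lower under STZ too (-0.83). Adipocyte markers moved the same way: 10 of 12 were above 0 under vehicle (median 0.13) and 10 of 12 below 0 under STZ (median -0.24). Over all 13258 genes kept, 49.1% were above 0 under vehicle and 7703 genes were below 0 under STZ. The adipocyte hormones resistin (Retn) and adiponectin (Adipoq) stood at 0.39 and 0.29 under vehicle and -0.41 and -0.43 under STZ. Pparg and Fabp4 were the 2 markers below 0 under vehicle (-0.25 and -0.034), and Car3 was at 0.0079. The summed intensity of the adipocyte list was 6566 in WT vehicle and 6726 in KO vehicle, lowest in KO STZ (6392) and highest in WT STZ (6899). The part of adipocytes in the lipid values was not tested.

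Mitochondrial fatty acid oxidation genes were mostly a little lower. Of 20 genes, 16 were below 0 (against 50.8% of all genes kept), 0 were past 1.5-fold, and the median was -0.13 under vehicle and -0.37 under STZ. The list median under vehicle lay between -0.14 and -0.084 under other settings. In 15 of the 20, both KO arrays were below both WT arrays, against 23.9% of all genes kept. These shares of all genes kept are not matched for level, and bright genes lay lower as a set. The lowest were Eci2, an enoyl-CoA isomerase (-0.55), Echs1, the short-chain enoyl-CoA hydratase shared with valine breakdown (-0.51), and Mlycd, malonyl-CoA decarboxylase (-0.43). Echs1 read 218 and 221 in the WT arrays and 152 and 151 in the KO arrays. Cpt1a, the liver form of the carnitine gate, was highest at 0.30. Of 15 fatty acid uptake genes, Slc27a4 alone was past 1.5-fold (11.9 in WT, 19.8 in KO); its paralog Slc27a1 was lower (-0.46 under vehicle and -1.26 under STZ), and the list median of -0.018 turned positive under quantile normalization and trend removal.

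Respiratory chain genes stayed near 0. Complex I had a median of 0.0081 over 32 genes and complexes II to V 0.0090 over 39, with 0 past 1.5-fold in either; the sign of the first turned when the clusters of a gene were averaged. Cox6a2, the muscle form of a cytochrome oxidase subunit, was the lowest at 2518 in WT and 1867 in KO (-0.43). The tricarboxylic acid cycle gave 0 of 21 past 1.5-fold. Nnt, which uses the mitochondrial proton gradient to make NADPH, was the only member past 1.5-fold of 19 NAD and nucleotide genes, at 62.2 in WT vehicle, 36.2 in KO vehicle, 45.1 in WT STZ and 38.3 in KO STZ. WT vehicle stood above the other arrays, which lay closer together. Micu3, a regulator of mitochondrial calcium entry, separated the genotypes in both treatments, at 74.1 and 76.8 in WT and 43.1 and 41.7 in KO; it was the only 1 of 31 excitability and calcium genes past 1.5-fold.

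In glucose metabolism 2 genes stood out in opposite directions. Pfkfb3, which makes the activator of phosphofructokinase and so raises glycolytic flux, read 189 in WT vehicle and 96.4 in KO vehicle, and 211 and 112 under STZ. The genotypes did not overlap, and Pfkfb3 was the only 1 of 21 glycolysis genes past 1.5-fold. Pck1, cytosolic phosphoenolpyruvate carboxykinase, which serves gluconeogenesis in liver and glyceroneogenesis in fat, read 21.9 in WT vehicle, 52.7 in KO vehicle, 28.7 in WT STZ and 32.00 in KO STZ. KO vehicle was the single high array, and Pck1 had the largest increase of all genes under vehicle (1.14) with little difference under STZ (0.14). The other 7 kept genes of gluconeogenesis and glyceroneogenesis were below 0, against 50.8% of all genes kept, and the list median was -0.21. Among the 7 were Fbp2, the muscle fructose bisphosphatase (-0.42), and pyruvate carboxylase Pcx (-0.32). Pck1 is also strongly made by adipocytes, and 10 of 12 adipocyte markers were above 0 under vehicle (against 49.1% of all genes kept), with a median of 0.13. The part of adipocytes in the Pck1 value was not tested. Prkag3, the muscle regulatory subunit of AMP kinase, read 250.1 in WT vehicle and 157 in KO vehicle but 216 and 209 under STZ.

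Several secreted factors of muscle were lower. Ostn, which encodes osteocrin (musclin), a myokine that raises natriuretic peptide signalling, read 117 in WT vehicle, 51.8 in KO vehicle, 83.3 in WT STZ and 45.9 in KO STZ. Wnt4, a ligand with roles in muscle differentiation, read 55.2, 25.02, 51.9 and 26.5 in that order. Both separated the genotypes in both treatments. Gdf11, a relative of myostatin, read 42.6 and 26.3 under vehicle but 29.4 and 25.5 under STZ, and myostatin (Mstn) differed by -0.13. Of 20 myokines and related factors, 2 were at least 1.5-fold lower and 1 higher, the last being Chad, a cartilage and tendon matrix protein. Of 34 Wnt, BMP and TGF-beta ligands and antagonists, Wnt4 was the only member at least 1.5-fold lower, and Thbs1 and Ccn2 were higher. Rasd2, a small GTPase gene, behaved like Wnt4, at 70.7 and 69.2 in WT and 36.2 and 34.9 in KO.

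Contractile genes moved within lists rather than as lists. Slow fibre genes split: the slow troponins Tnni1 and Tnnc1 and slow tropomyosin Tpm3 were lower (-0.49, -0.42 and -0.52), as was sarcolipin, Sln (-0.57); a dimmer cluster of Tpm3 was at 0.037 and the average of both at -0.24. By contrast, Csrp3, Ankrd2, Myoz2 and Lmcd1 were higher (0.70, 0.57, 0.58 and 0.58). The median of the 19 slow fibre genes was 0.084 under vehicle and -0.39 under STZ, and Csrp3 alone was past 1.5-fold. Csrp3, a Z-disc LIM protein, read 169 in WT vehicle, 278 in KO vehicle, 308 in WT STZ and 301 in KO STZ. WT vehicle was thus the single low array. Slow myosin heavy chain Myh7 was -0.25, the intermediate fast chain Myh2 0.48 and Myh1 0.24, while the abundant Myh4 differed by -0.061. None of 20 fast fibre genes was past 1.5-fold, and 16 were below 0, against 50.8% of all genes kept. Their median was -0.065, a sign that turned under quantile normalization and after trend removal.

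Myom3, an M-band protein of intermediate fibres, was the only 1 of 26 sarcomere and Z-disc genes past 1.5-fold, at 52.7 in WT vehicle, 105 in KO vehicle, 51.5 in WT STZ and 73.5 in KO STZ. Both KO arrays were above both WT arrays. Lmod2, which lengthens thin filaments, was at 0.57, and Actn2 at 0.43; 8 of the 26 genes had both KO arrays above both WT arrays, against 15.8% of all genes kept. Smtnl1, a smoothelin-like protein that regulates myosin phosphatase, read 87.97 in WT vehicle and 166, 149 and 144 on KO vehicle, WT STZ and KO STZ. As with Csrp3, WT vehicle was low and the other 3 arrays were alike. Denervation and neuromuscular junction genes had 0 of 21 past 1.5-fold, and Rapsn, which clusters acetylcholine receptors, was the lowest (-0.54 and -0.51).

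Matrix-associated genes were mostly higher beyond the collagens, whose list had 4 of 20 genes at least 1.5-fold higher (median 0.38). Of 32 matricellular and collagen-processing genes, 25 were above 0, against 49.1% of all genes kept. Of the 32, 5 were at least 1.5-fold higher, 0 were lower and the median was 0.23. The 5 were Thbs1, Chad, Cilp, Prelp and Ccn2. Thbs1, thrombospondin 1, which activates latent TGF-beta, read 17.7 in WT vehicle, 39.3 in KO vehicle, 27.9 in WT STZ and 21.1 in KO STZ. Its order therefore turned under STZ. Chad read 50.2, 104, 61.2 and 87.2 in the same order, with both KO arrays above both WT arrays; it is a member of the matricellular, tendon and myokine lists alike. Under STZ the median of the matricellular list was 0.087 and that of the collagen list 0.41.

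Tendon and vessel markers were mostly higher on the same array. The counts above 0 that follow stand against 49.1% of all genes kept. Of 14 tendon markers, 11 were above 0, 3 were at least 1.5-fold higher (Chad, Col12a1 and Prg4, the lubricant of tendon and joint surfaces) and the median was 0.27, or 0.46 with the level filter at percentile 75; their summed intensity was 634 in WT vehicle, 850 in KO vehicle, 726 in WT STZ and 854 in KO STZ. Prg4 read 29.4, 58.2, 48.3 and 57.6 in that order. The tendon cell regulator Scx went the other way under vehicle (-0.29), Mkx stayed dim on all 4 arrays (5.39 to 6.92), and tenomodulin, Tnmd, was at 0.55. Of 15 endothelial markers, 14 were above 0, with a median of 0.19 and a summed intensity of 1043 in WT vehicle, 1231 in KO vehicle, 1058 in WT STZ and 1102 in KO STZ. Vwf, von Willebrand factor, was at 0.58 and the apelin receptor Aplnr at 0.61. Fibroblast markers had a median of 0.17 with 11 of 13 above 0, and smooth muscle and pericyte markers 0.12 with 12 of 14 above 0, led by Notch3 (17.5 in WT, 31.3 in KO). Their summed intensities went from 3872 to 3955 and from 5878 to 6113 between WT vehicle and KO vehicle. Under STZ, 13 of 14 tendon markers were above 0, but 8 of 15 endothelial, 7 of 13 fibroblast and 7 of 14 smooth muscle markers. Over all 13258 genes kept, 5540 were above 0 under STZ. The part of these cells in the matrix values was not tested; in whole muscle, more cells of a type and more RNA per cell cannot be told apart.

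Macrophage markers had 8 of 14 above 0 (against 49.1% of all genes kept) and a median of 0.066, whose sign turned without a level filter. Few markers of other blood cells passed the level filter. These were 2 of 11 for lymphocytes, 3 of 12 for neutrophils and mast cells and 1 of 2 for erythroid cells. For Schwann cells and nerve, 6 of 12 passed, all below 0 (against 50.8% of all genes kept) with a median of -0.14. Angptl7, a secreted angiopoietin-like protein, lay outside the marker lists and read 149.9 in WT vehicle and 247 in KO vehicle, with 181 and 210.4 under STZ. Both KO arrays were above both WT arrays for Angptl7.

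**Figure D3:**
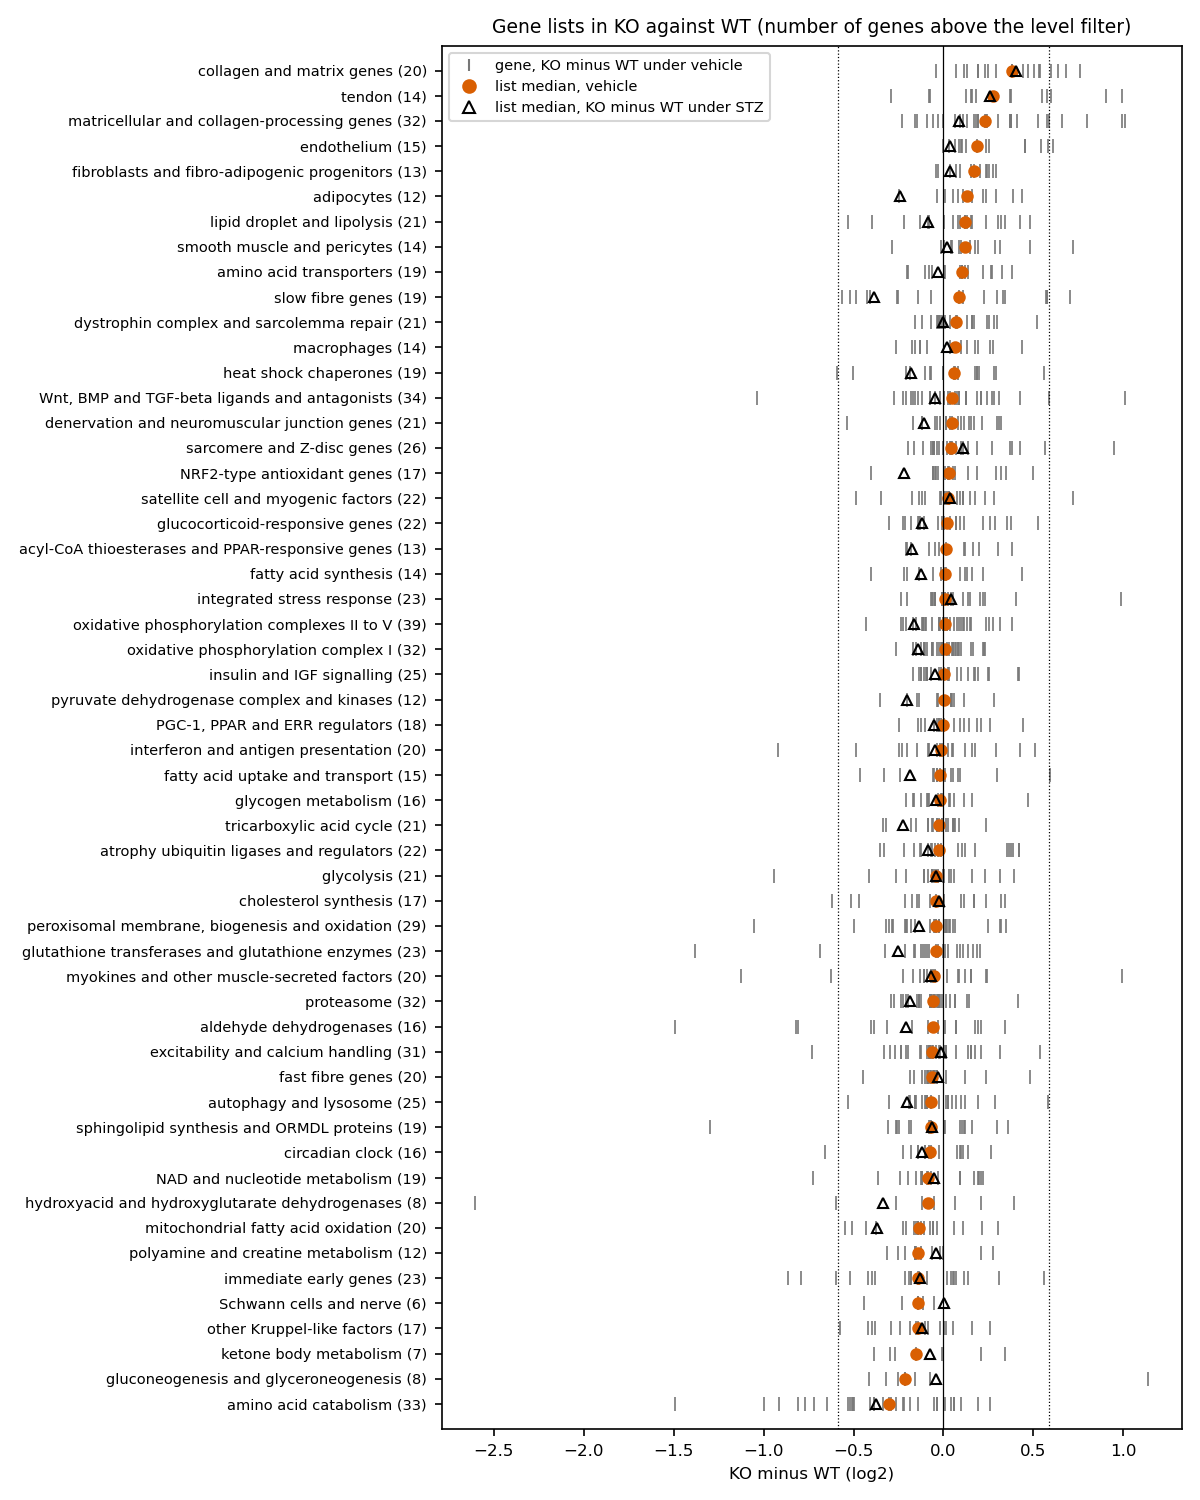
Log2 difference KO minus WT for each gene list (rows, with the number of genes above the level filter); grey ticks are genes under vehicle, orange circles the list medians under vehicle and open triangles the list medians under STZ, with dotted lines at 1.5-fold. Collagen, tendon and matricellular genes have the highest medians (0.38, 0.27 and 0.23) and amino acid catabolism the lowest (-0.30), and several lists with medians near 0 hold a gene far out, as Adhfe1 at -2.60.

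Interferon-inducible genes were low in places. Gm4841 and its neighbour F830016B08Rik, both of the family of interferon-inducible GTPases, read 156 and 449 in WT vehicle and 50.6 and 224 in KO vehicle. In WT STZ they read 70.1 and 222 and in KO STZ 58.2 and 178, so WT vehicle was the single high array for both. Tap1, a peptide transporter of antigen presentation, was instead low on KO vehicle alone, at 11.2 there and 24.6, 21.9 and 20.3 on WT vehicle, WT STZ and KO STZ. Tap1 was the only 1 of 20 interferon and antigen presentation genes past 1.5-fold; Iigp1 was at -0.49 and Oasl2 at 0.51, and the median of -0.011 changed sign under quantile normalization, without a level filter and with the level filter at percentile 75.

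Immediate early genes, which respond within minutes to many stimuli, held 3 genes at least 1.5-fold lower and 0 higher among 23. The median was -0.14, and 14 of the 23 were below 0, not far from the 50.8% of all genes kept. Fos read 28.1 in WT vehicle, 13.8 in KO vehicle, 27.2 in WT STZ and 15.8 in KO STZ, and Egr1 read 28.1, 14.7, 57.7 and 10.1. For both the KO arrays were low in each treatment. Junb was at -0.60 and Ier3 at 0.56. The orphan receptor gene Nr4a3, induced by exercise, differed in the other direction under vehicle, at 16.2 in WT and 33.8 in KO, and reversed under STZ, at 31.1 and 14.5. The sources used here do not give the hour at which the muscles were taken.

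Among other regulators, 0 of 17 Kruppel-like and Sp factors other than Klf15 were past 1.5-fold, with a median of -0.14. The lowest, Sp4, Klf4 and Klf6, were at -0.57, -0.42 and -0.40 under vehicle and at -0.40, -0.96 and -0.86 under STZ, and Klf13 was highest at 0.26. Cry1, a repressor of the circadian clock, was the only 1 of 16 clock genes past 1.5-fold, at 33.4 in WT vehicle against 19.8, 22.2 and 22.9 on KO vehicle, WT STZ and KO STZ. WT vehicle was the single high array. Hspa1a was the only 1 of 19 heat shock genes past 1.5-fold (46.03 in WT vehicle, 29.3 in KO vehicle), and its near-identical copy Hspa1b differed by 0.28, so the split of signal between them is uncertain. Nupr1, a stress-induced chromatin protein, was the only 1 of 23 integrated stress response genes past 1.5-fold, at 30.2 in WT vehicle and 63.3, 48.3 and 63.04 on KO vehicle, WT STZ and KO STZ. Sox4, a developmental transcription factor, read 5.61 and 4.62 in WT and 10.6 and 10.3 in KO. Both WT values lie below the level filter of 5.81, so Sox4 was kept only through the KO arrays and its difference carries no weight.

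Programmes of muscle wasting and insulin action showed few differences. Of 22 atrophy genes 0 were past 1.5-fold; the ubiquitin ligases Trim63 and Cblb were at 0.38 and 0.42, the transcription factor Foxo3 at 0.38, and atrogin-1, Fbxo32, at -0.032. The clusters of Foxo1 disagreed: the brighter was at 0.42 under vehicle and the dimmer at -0.35, and their average was 0.037. Under STZ, Foxo3 was at 0.29 and Fbxo32 at -0.70. Insulin and IGF signalling gave 0 of 25 past 1.5-fold, with Igf1r at 0.41. Ppargc1a, the coactivator PGC-1alpha, read 137 in WT and 187 in KO (0.44), and 0 of 18 PGC-1, PPAR and ERR regulators were past 1.5-fold. Of 32 proteasome genes, 25 were below 0 by small amounts (against 50.8% of all genes kept) and 0 were past 1.5-fold. In 17 of them both KO arrays were below both WT arrays, against 23.9% of all genes kept. The proteasome median of -0.058 changed sign under quantile normalization. Glucocorticoid-responsive genes had 0 of 22 past 1.5-fold, the highest being the metallothionein Mt2 (0.53).

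The remaining large increases belonged to genes of mixed function and included several with KO vehicle as the single high array. Dusp18, a dual-specificity phosphatase, read 42.7 in WT vehicle, 86.5 in KO vehicle, 53.4 in WT STZ and 57.9 in KO STZ. Syt12, a synaptotagmin, read 10.9, 23.5, 9.82 and 10.03, and Lrrc52, a channel accessory subunit, 15.1, 32.3, 20.2 and 22.4. In all 3 the KO vehicle array was the highest. The other 3 arrays were close for Syt12 but more spread for Dusp18 (42.7 to 57.9) and Lrrc52 (15.1 to 22.4). Among the 77 genes at least 1.5-fold higher, KO vehicle was the highest of the 4 arrays in 66 (85.7%, against 25.1% of all genes kept), and WT vehicle the lowest in 60 (77.9%, against 20.6%). The 77 were chosen by the KO vehicle and WT vehicle arrays, which by itself raises both shares, so no conclusion is drawn from them.

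The remaining large decreases included Htra4, a serine protease gene (-0.93 under vehicle and -0.36 under STZ), Lsm1, a factor of mRNA decapping (-0.84 and -0.31), Zfyve21, an endosome protein gene (-0.71 and -0.71) and Ppp1cc, a protein phosphatase 1 catalytic subunit (-0.78 and -0.60). All 4 were lower in KO under both treatments. For some genes the clusters disagreed. The brightest cluster of Smarcd1, a subunit of the SWI/SNF remodeller, was at -0.82 and the other at -0.14, and the brightest of Rpl3, a ribosomal protein gene, was at -0.76 while 2 others were at 0.29 and 0.24, so neither gene as a whole can be called lower. Over 62 cytosolic ribosomal protein genes the median was -0.084, and over 69 mitochondrial ones -0.017. Of 275 zinc finger genes, 7 (2.55%) were at least 1.5-fold lower and 3 (1.09%) higher, led by Zfp958 (-0.99 and -0.64).

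The vehicle and STZ pairs share no array, so the STZ pair shows which of these differences appeared again. With STZ, KO was at least 1.5-fold below WT in 372 genes (2.81%) and above it in 112 (0.845%), and at 2-fold the counts were 38 (0.287%) and 7 (0.0528%). Of the 103 genes lower under vehicle, 32 were also lower under STZ, which is 31.1% of the vehicle list and 8.60% of the STZ list. Of the 77 genes higher under vehicle, 8 were also higher under STZ, 10.4% of the vehicle list and 7.14% of the STZ list. The background for these shares of the vehicle list is 2.81% and 0.845%. The 32 shared genes became 51 with an offset of 1, and the 8 became 13 under quantile normalization and 4 with the offset at the median. The median STZ difference was -0.36 over the 103 and 0.07 over the 77, against -0.048 over all genes kept. All 10 genes at least 2-fold lower under vehicle had both KO arrays below both WT arrays, and so did 79 of the 103 (76.7%, against 23.9% of all genes kept). For the 77 higher genes, both KO arrays were above both WT arrays in 48 (62.3%, against 15.8%), and 49 were above 0 in the STZ pair. The choice of these genes by the vehicle arrays raises the 4-array counts, that is, all 10, the 76.7% and the 62.3%. The shares of all genes kept beside them are therefore not their values without a difference. Whether the choice also raises the shares counted in the STZ pair alone was not tested.

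The 32 shared lower genes comprised Klf15, 7 of amino acid breakdown or its first transamination (Bcat2, Bckdhb, Dbt, Ivd, Mmut, Aldh6a1 and Kyat3), the enzymes Adhfe1, Aldh2, Gstk1, Gstm2 and Pfkfb3, the secreted factors Ostn, Wnt4 and Fgfbp1, the early genes Fos and Egr1, and Hspa1a, H2bc21, Lancl1, Lin52, Micu3, Ppp1cc, Pxmp2, Rasd2, Zfp958 and Zfyve21, with 4 predicted genes. The 8 shared higher genes were Col1a1, Col1a2, Col3a1, Sox4, 2 microRNA genes, a small nucleolar RNA gene and a vomeronasal receptor gene. Sox4 and the receptor gene were below the level filter on both WT arrays and Fgfbp1 on both KO arrays, so each was kept only through the genotype where it is high. Col1a1 read 425 in WT vehicle, 721 in KO vehicle, 399 in WT STZ and 756 in KO STZ. Its genotypes were apart by about the same amount in both treatments (0.76 and 0.92). Of the genes with the largest increases under vehicle, Pck1, Thbs1, Dusp18 and Nr4a3 were not 1.5-fold higher under STZ, and none of the 3 genes at least 2-fold higher (Pck1, Thbs1 and the predicted gene 2310020H05Rik, the last named after its values were seen) was.

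**Figure D4:**
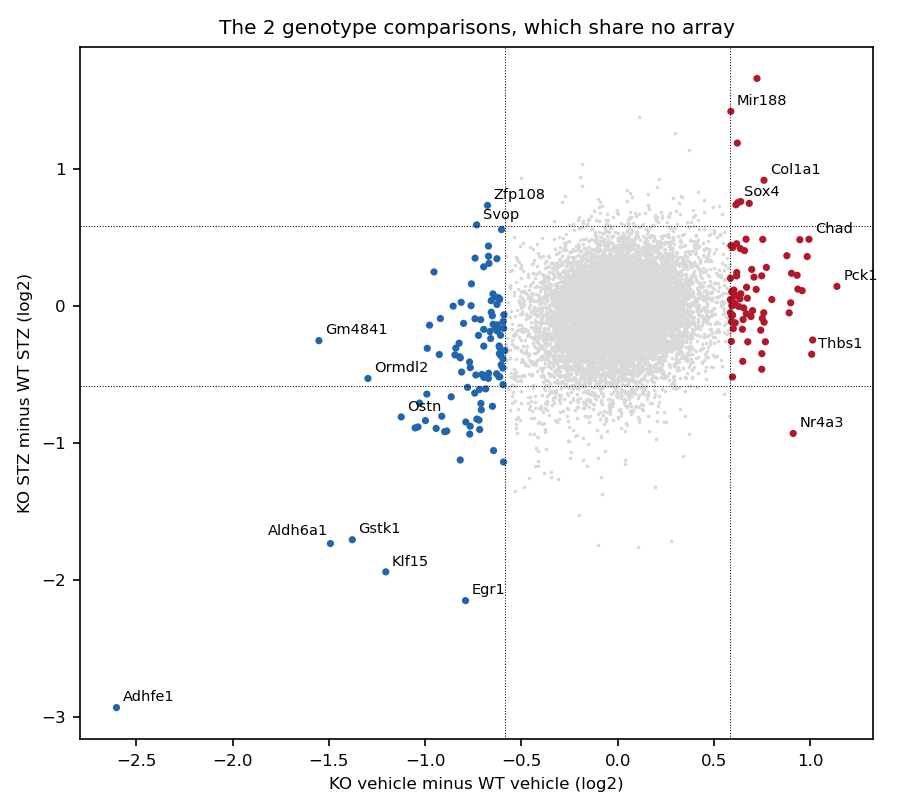
Log2 difference KO minus WT under vehicle (horizontal axis) and under STZ (vertical axis) for the 13258 genes kept, with dotted lines at 1.5-fold; blue and red points are genes at least 1.5-fold lower and higher under vehicle. The lower left corner holds 32 genes, from Adhfe1 (-2.60 and -2.93) inward, and the upper right corner 8, while Nr4a3 lies at 0.91 and -0.93.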

How the data were processed

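Transcript levels in gastrocnemius were read on 4 Affymetrix arrays, 1 per group; per the labels' protocols, 4 ug of total RNA was made into biotin-labelled cRNA. The authors deposited 1 linear intensity per probe cluster and array for 41345 clusters. The sources used here do not give how background was corrected, probes summarised or arrays scaled, so differences between arrays include whatever that scaling left. The number of arrays limits the precision.

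Intensities were taken to log2 after adding 3.69, percentile 25 of all values. Clusters were named through the platform annotation, only where it lists 1 gene symbol. The brightest cluster stood for a gene, and genes with a mean log2 level above the median of all clusters (intensity 5.81) were kept. Folds of 2 and 1.5 (0.58 on the log2 scale) were counted with no test and no p-value. The 59 gene lists held 1154 genes, of which 1055 were matched and 989 kept; some genes are in several lists. The groups compared and the lists were chosen with earlier results of these data known. Genes were named by a rule: Klf15, the 30 largest differences each way, the 3 highest and 3 lowest members and the key genes of each list, and genes at least 1.5-fold apart the same way under vehicle and STZ; predicted, receptor and small RNA genes were given as counts unless a statement turned on them. Acta1, Aldh1l1, Ankrd2, Gclc, Mstn, Ormdl1, Prelp, Prkag3, Rpl3 and Tnnc1 fall outside the rule and were chosen after their values were seen. Alternatives were quantile normalization, removal of a lowess trend, centring, offsets of 1 and of the median, no level filter or one at percentile 75, and averaging the clusters of each gene. Gene order and promoters came from RefSeq on GRCm38.p6; the array's build was not used for coordinates. The counting code was run on simulated data with large known differences. That run checks the code, not the error between animals or the 1.5-fold calls. Analyses ran in python 3.11.15 with numpy 2.4.6, pandas 2.3.3 and statsmodels 0.14.6.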

Additional observations from a re-analysis of the deposited data

Results flagged for a closer look

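Nr4a3, the exercise-induced orphan receptor gene, differed in opposite directions under the 2 treatments. Its log2 difference KO minus WT was 0.91 under vehicle and -0.93 under STZ, a change of -1.84 between the pairs. Svop, which encodes a synaptic vesicle protein, had -0.73 under vehicle and 0.59 under STZ, a change of 1.32. Its intensity was 19.1 in WT vehicle, 10.02 in KO vehicle, 13.9 in WT STZ and 22.8 in KO STZ. Zfp108, a zinc finger gene, had -0.68 under vehicle and 0.73 under STZ, a change of 1.41, with intensities of 12.2, 6.28, 6.65 and 13.5 in the same order. These were the 3 genes at least 1.5-fold apart in both pairs with opposite signs, and with 1 array per group the difference between the pairs was not tested.

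Clusters for which the annotation used here lists no gene differed more between the vehicle arrays than clusters with a gene. Of 16010 such clusters, 5629 passed the level filter, and 3.22% of these were at least 2-fold apart, 73 higher and 108 lower in KO vehicle. Among clusters with 1 gene symbol the share was 0.101%. No explanation was tested.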

How the results depend on the processing

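No paired analysis was possible because the groups compared share fewer than 2 replicate numbers, with 1 array each. Klf15 was 2-fold or more lower in KO vehicle under all 8 alternatives, between -1.31 and -1.13. With an offset of 1, the genes at least 2-fold higher numbered 13 and lower 19, and those at least 1.5-fold higher 141 and lower 176. With the offset at the median, the higher genes numbered 1 at 2-fold and 47 at 1.5-fold. With the level filter at percentile 75, 38 genes were at least 1.5-fold higher and 58 lower. The other counts stayed within 1.5 times the main ones. Of 92 named genes past 1.5-fold, 14 lost the call under at least 1 alternative and 0 changed sign. These are Aplnr, Ccn2, Col12a1, Cyp2f2, Hsd17b7, Hspa1a, Junb, Ldhd, Slc27a4, Smarcd1, Sox4 and 3 small RNA or receptor genes. Of the 20 list medians of at least 0.1 in size, 0 changed sign; with the level filter at percentile 75 the tendon and Nr4a receptor medians became 0.46 and 0.55. Low signal limits dim genes, whose differences the offset shrinks.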

Other observations

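Some lists were not described above. Of 17 cholesterol synthesis genes, Hsd17b7 was the only gene past 1.5-fold, at 17.8 in WT vehicle, 10.3 in KO vehicle, 21.2 in WT STZ and 13.7 in KO STZ. Both KO arrays were below both WT arrays for Hsd17b7. The list median of -0.043 turned positive with the level filter at percentile 75. Of 25 autophagy and lysosome genes, 0 were past 1.5-fold, with Atg12, a ubiquitin-like conjugation protein of autophagy, lowest at -0.53 under vehicle and -0.52 under STZ and the protease Ctsk highest at 0.58 under vehicle and -0.20 under STZ. Of 12 polyamine and creatine genes, 10 were below 0 (against 50.8% of all genes kept) with a median of -0.14. Of 22 satellite cell and myogenic genes, Notch3 alone was past 1.5-fold, and the Notch targets Hey1 and Heyl were at -0.49 and -0.35.

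Xist, read where a second X chromosome is present, lay between 3.31 and 3.61 on the 4 arrays, below the level filter, and the Y-linked Eif2s3y lay between 87.1 and 103 on all 4.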
